A study of Mus musculus with 8 samples.

Results

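Interferon response genes were followed in the dorsal skin of hairless mice, as a list of 40 genes picked by name and known function. Earlier results of these data were known when the list was made. A gene entered when the array's annotation gave it a probe set (a group of short probes for a transcript) with a single gene symbol, and its brightest such probe set over all arrays was used. Of the 40 genes, 38 had one, out of 18193 genes measured in this way. Isg15 shared its probe set with a second gene, and Ifi44 had no single-gene probe set.

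The mice were females of the strain Hos:HR-1, aged 10 weeks at sampling. For 1 week the control group ate AIN93G, a purified rodent diet, and the collagen group ate it with 2.0 g per 100 g of a hydrolysate of fish-scale collagen, that is, collagen digested to peptides. The study kept 8 mice per diet, 4 to a cage, and 4 arrays per diet, called biological replicates, were used here. Arrays of a diet may therefore come from mice that shared a cage. They are named control 1 to 4 and collagen 1 to 4. Apart from the hairless strain, which all arrays share, no genetic change or infection is described for either group. The mice, cages and array batches behind the arrays were not traced here, and the p-values measure the spread between these 8 arrays.

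Interferons are secreted proteins that warn cells of viruses and other infections. Type I interferons signal through the kinases Jak1 and Tyk2 to a complex that includes Stat2 and Irf9 and binds the interferon-stimulated response element (ISRE) in front of its target genes. Interferon gamma signals through Jak1 and Jak2 to genes with a gamma-activated site (GAS), and also induces Irf1, a factor that can use the ISRE. In skin, keratinocytes, fibroblasts and resident immune cells all respond to these signals. Many target genes are also expressed at a low level without infection.

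The regulatory sequences of the list are shown first, because the ISRE and the GAS are where the pathways reach their genes. They were not used to choose the genes or to divide the lists. RefSeq promoter windows of assembly GRCm38.p6, from 250 bases before to 50 after a start, were matched for 29 of the 40 genes. On either strand, the core of the ISRE (GAAA, any 2 bases, GAAA) was found in the windows of 17 of these 29 genes, 58.6%, against 3.99% of 27025 genes with such a window. TTCNNNGAA (the core of the GAS) was found in 9 of the 29, or 31.0%, against 9.55% of all genes. Among the measured members with a window, the ISRE letters were present in 7 of 14 type I effectors and 6 of 6 interferon-gamma GTPases, and the GAS letters in 5 of 14 and 3 of 6. Both motifs thus occurred in both lists. A match shows only that these letters are present, and no binding was measured.

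Stretches of 140 bases that end at the base before the start show how the motifs lie in some of the genes described below. Only members with a match in that stretch are shown, and not all of those, so the stretches are picked examples. Among all measured members with a window, an ISRE match before the start was found in 6 of 14 type I effectors and 6 of 6 GTPases. Both motifs are in capitals and the rest in lower case, each read 5′ to 3′ on the gene's own strand.
Ifit1 (chr19:34640749-34640888, plus strand): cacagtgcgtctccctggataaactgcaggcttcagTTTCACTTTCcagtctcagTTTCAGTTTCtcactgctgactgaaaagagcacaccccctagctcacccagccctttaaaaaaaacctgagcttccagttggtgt
Rsad2 (chr12:26456453-26456592, minus strand): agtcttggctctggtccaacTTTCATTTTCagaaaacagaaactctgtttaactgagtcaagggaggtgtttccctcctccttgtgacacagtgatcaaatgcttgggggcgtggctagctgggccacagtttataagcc
Oas1a (chr5:120907526-120907665, minus strand): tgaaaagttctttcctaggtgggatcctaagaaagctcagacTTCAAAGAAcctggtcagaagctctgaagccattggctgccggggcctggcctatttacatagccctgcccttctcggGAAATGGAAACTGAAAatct
Bst2 (chr8:71537473-71537612, minus strand): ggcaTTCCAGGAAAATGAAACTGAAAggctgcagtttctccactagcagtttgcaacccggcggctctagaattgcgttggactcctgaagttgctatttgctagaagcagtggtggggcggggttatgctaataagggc
Gbp2 (chr3:142620523-142620662, plus strand): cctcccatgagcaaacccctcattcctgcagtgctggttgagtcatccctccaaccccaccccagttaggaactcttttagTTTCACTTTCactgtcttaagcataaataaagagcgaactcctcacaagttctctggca
Gbp7 (chr3:142530196-142530335, plus strand): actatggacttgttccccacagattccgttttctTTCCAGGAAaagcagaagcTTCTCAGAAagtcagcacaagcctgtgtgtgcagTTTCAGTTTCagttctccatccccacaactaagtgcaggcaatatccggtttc
Igtp (chr11:58199416-58199555, plus strand): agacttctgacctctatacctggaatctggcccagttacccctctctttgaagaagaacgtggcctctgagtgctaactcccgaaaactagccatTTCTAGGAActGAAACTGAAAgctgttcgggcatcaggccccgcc
Irgm1 (chr11:48871421-48871560, minus strand): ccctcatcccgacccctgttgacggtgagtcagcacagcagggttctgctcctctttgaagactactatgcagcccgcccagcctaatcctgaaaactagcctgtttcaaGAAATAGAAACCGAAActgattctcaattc
Irgm2 (chr11:58214837-58214976, plus strand): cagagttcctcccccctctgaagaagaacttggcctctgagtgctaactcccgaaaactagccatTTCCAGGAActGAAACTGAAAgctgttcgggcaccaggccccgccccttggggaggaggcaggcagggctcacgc
Irf1 (chr11:53769874-53770013, plus strand): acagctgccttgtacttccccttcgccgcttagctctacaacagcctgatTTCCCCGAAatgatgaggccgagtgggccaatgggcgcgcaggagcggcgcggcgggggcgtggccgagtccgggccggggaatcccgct
Ifit1 held 2 ISRE matches, TTTCACTTTC and TTTCAGTTTC, both in the reverse orientation. Igtp and Irgm2, close to each other on chromosome 11, each held a GAS match (TTCTAGGAA and TTCCAGGAA) followed by the ISRE match GAAACTGAAA, and their windows shared a stretch of 38 identical bases. In Bst2 the GAS match TTCCAGGAA overlapped the first of 2 ISRE matches. Irf1 held the GAS match TTCCCCGAA and no ISRE match in its windows.

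Each array gave a value for each of 45101 probe sets, with array medians between 8.1929 and 8.1932 on the deposited log2 scale. Keratinocyte markers (Krt5, Krt14, Krt1, Krt10, Lor and Flg) had mean levels from 12.2 to 14.4 and fibroblast markers from 11.2 to 14.2, which fits the labelled tissue. Skeletal muscle markers lay at 9.99 to 13.99, so muscle RNA was present too. The deposited values varied very little between arrays. The median gene had a range of 9.16e-06 over the 8 arrays, and 762 genes (4.19%) had a range above 0.001. No difference was therefore converted to a fold change. Differences are given on the deposited log2 scale with their standard error (SE), and some also in units of the standard deviation (SD) within a diet. In whole skin, fewer cells of a type and less RNA per cell cannot be told apart.

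Interferon response genes were among the more variable genes of this skin. Of the 38 members, 37 had a range over the 8 arrays above the median of all genes, 25 had a range above the 95th percentile and 10 above the 99th. The widest was that of Rsad2 (viperin, which blocks viral replication) at 0.169, followed by Iigp1 at 0.0475 and Ifit1 at 0.0473. The narrowest was that of Oas3 at 8.48e-06. What made the ranges small and unequal is unknown, so they describe the deposited values and may not show the spread in the skin.

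**Figure D1:**
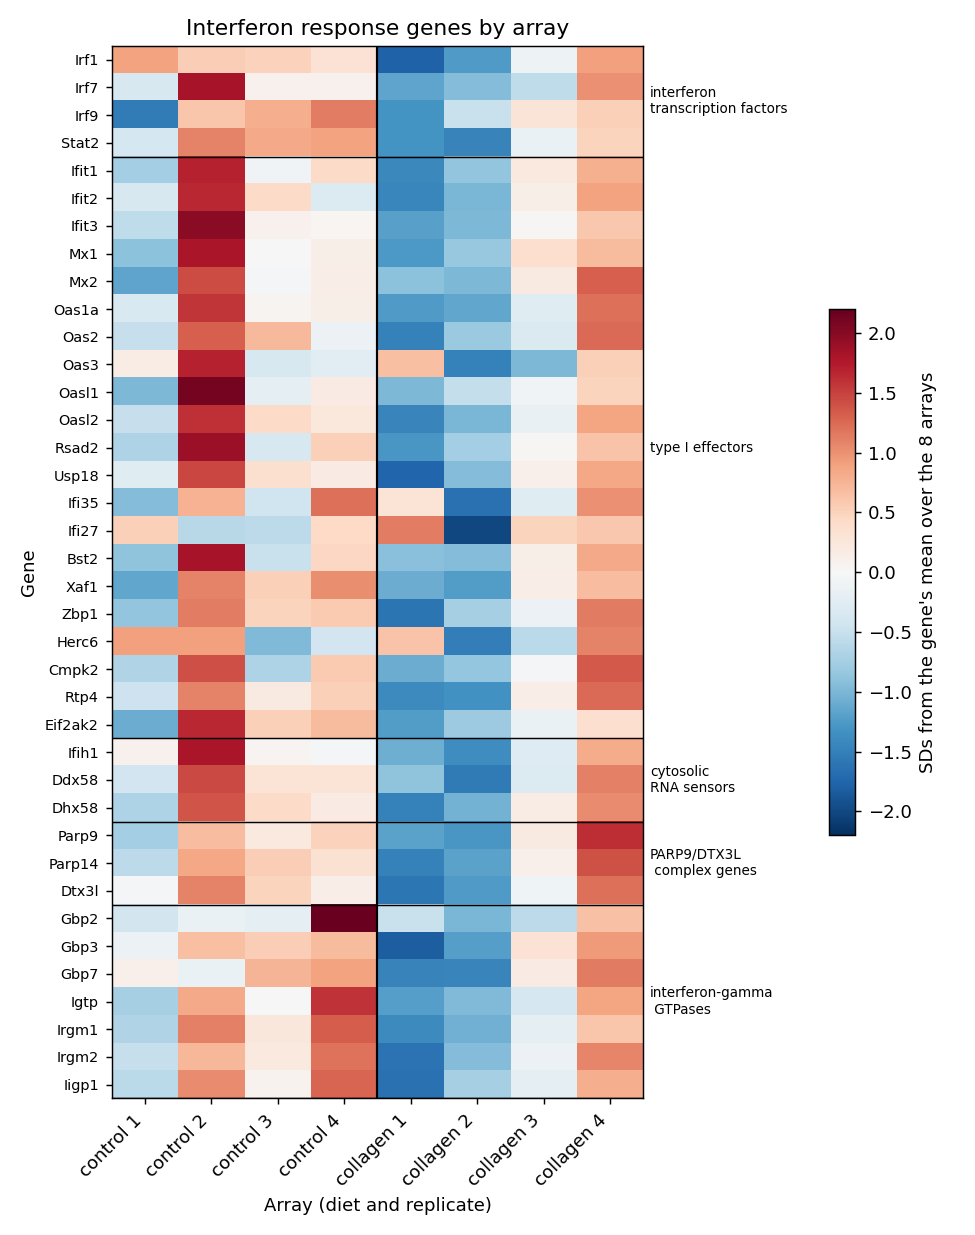
Interferon response genes (rows, grouped by role) in the 8 arrays (columns). Colour gives the number of SDs from the gene's own mean over the 8 arrays, from blue (low) to red (high). Most rows are red in control 2 and collagen 4 and blue in collagen 1 and collagen 2. Of the 7 GTPases at the bottom, 5 are reddest in control 4.

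The members moved together from array to array, in both diets. All 38 members lay above their own 8-array mean in collagen 4, and 35 did in control 2. In collagen 2, 0 of 38 lay above it, and in collagen 1 only 4 did, namely Oas3, Ifi35, Ifi27 and Herc6. Over the 703 pairs of members the median Pearson correlation was 0.831 (8 arrays), against 0.007 over all pairs of genes. Among the 762 genes with a range above 0.001 the median was 0.119. With each diet centred on its own mean, the median over the members was 0.819. The members share the same 8 arrays, and these correlations are a description with no test.

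Comparing the diets asks whether 1 week of collagen hydrolysate went with another level of interferon response in skin. The members lay lower with collagen in 37 of 38 genes, where 47.1% of all 18193 genes lay lower. The exception was Ifi27, a mitochondrial protein, higher by 5.87e-06 ± 4.30e-05 (SE, n = 4 per diet). None of the differences passed a test: by limma's moderated test with Benjamini-Hochberg adjustment over all genes, 0 of 38 members were called at adjusted p under 0.05, against 0% of all genes. At an unadjusted p under 0.05 there were also 0 members, against 3.49% of all genes (1.23% lower and 2.26% higher), and the smallest p of a member was 0.0666. The diets overlapped in each of the 38 members, whereas 2.02% of all genes did not overlap (0.671% lower and 1.35% higher). The median difference of the members was -0.71 within-group SD, against 0.05 SD over all genes, and in 34 of 38 it was smaller than 1 SD. Because the members move together, the count of 37 is not 37 separate observations.

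Scaling and single arrays moved these counts. After quantile normalization 32 of 38 members lay lower, where 34.4% of all genes did, and after centring each array on its median 30 of 38 did, where 5.4% of all genes did. Median centring adds the same 5.52e-05 to the difference of each gene, so the sign turned in the members whose difference was smaller than that. The members' median moderated t was -1.09 after it and -1.05 before, while that over all genes was 0.69 after it and 0.07 before. Without collagen 4, which had high values, 38 of 38 lay lower. Dtx3l, Gbp2, Ifih1, Irf1 and Irf7 then no longer overlapped between the diets, and 5 members had an unadjusted p under 0.05, against 8.75% and 8.53% of all genes. Without control 1, Eif2ak2, Irf9 and Stat2 did not overlap and 2 members had such a p, against 7.43% and 6.12% of all genes. None of these passed after adjustment (adjusted p of 0.526 and higher by limma).

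**Figure D2:**
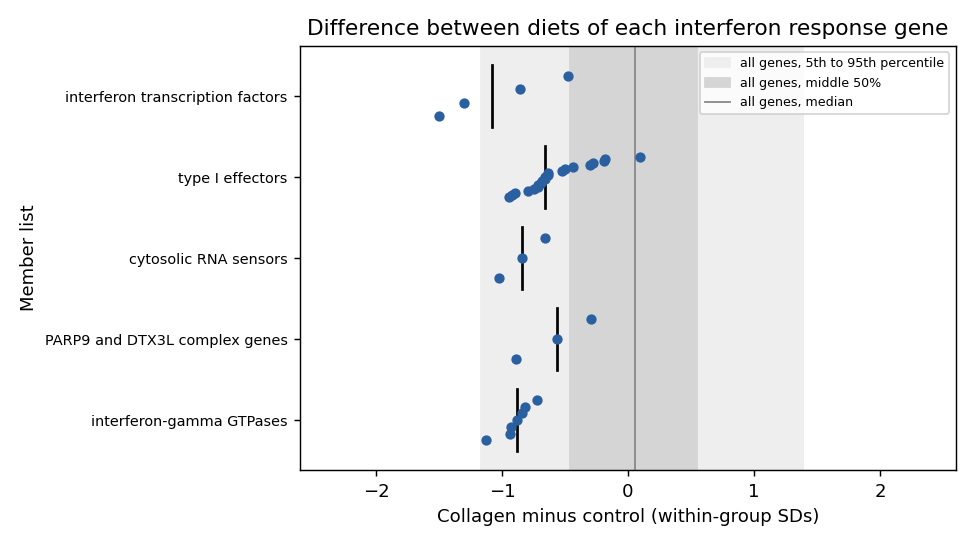
Difference between diets of each interferon response gene, in within-group SDs, by role. Each point is a gene, black bars are list medians, and grey bands span the 5th to 95th percentile and the middle 50% of all genes. All points but Ifi27 lie left of 0, and only Stat2 and Irf1 lie outside the outer band.

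Among the transcription factors, Stat2 and Irf1 had the largest differences of the list in SD units. Irf1, induced by interferon gamma and other cytokines, stood at 10.1562, 10.1561, 10.1561 and 10.1560 in control 1 to 4 and at 10.1553, 10.1555, 10.1559 and 10.1562 in collagen 1 to 4. Its control arrays hardly differed from each other, collagen 1 to 3 lay below all of them, and collagen 4 was level with the highest of them. The difference was -4.08e-04 ± 2.13e-04 (SE), or -1.30 SD (adjusted p = 0.999 by limma). Stat2, the type I signalling factor, differed by -1.90e-05 ± 8.65e-06, or -1.50 SD (unadjusted p = 0.0666, adjusted p = 0.999 by limma). It lay 1.31 and 1.48 SD below its own mean in collagen 1 and collagen 2 and 1.10 SD above it in control 2. A second Stat2 probe set did not repeat this difference. With a mean of 7.84, against 8.01 for the one used, it differed by -4.58e-07 ± 3.81e-06.

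Irf7, which amplifies type I interferon production, stood at 8.8311, 8.8329, 8.8315 and 8.8315 in control 1 to 4 and at 8.8304, 8.8306, 8.8309 and 8.8323 in collagen 1 to 4. Its highest array was control 2, and collagen 4 came next. The difference was -7.08e-04 ± 5.63e-04. Irf9, the DNA-binding partner of Stat2, lay 1.55 SD below its mean in control 1 and 1.32 SD below it in collagen 1, and differed by -3.86e-05 ± 5.49e-05.

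The cytosolic RNA sensors were all highest in control 2 and next highest in collagen 4. Ifih1 (MDA5), which senses long double-stranded RNA, lay 1.79 SD above its mean in control 2, 0.82 SD above it in collagen 4 and 1.37 SD below it in collagen 2. The other control arrays lay within 0.09 SD of its mean. Ddx58 (RIG-I) lay 1.45 SD above its mean in control 2 and 1.56 SD below it in collagen 2. Dhx58 (LGP2), which tunes both sensors, stood at 7.8181, 7.8195, 7.8189 and 7.8187 in control 1 to 4 and at 7.8176, 7.8179, 7.8187 and 7.8193 in collagen 1 to 4. The 3 sensors differed by -1.63e-04 ± 1.08e-04, -8.30e-05 ± 6.70e-05 and -4.56e-04 ± 4.72e-04. Both weaker Dhx58 probe sets, at levels of 7.68 and 7.12, and a weaker Ddx58 probe set at 7.90 lay higher with collagen, by 2.76e-07, 1.54e-06 and 7.43e-07.

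Type I effectors are proteins that act on viral RNA, proteins and budding, and 20 of the 21 measured lay lower with collagen, with 0 called. Rsad2 stood at 9.170, 9.308, 9.187 and 9.235 in control 1 to 4 and at 9.138, 9.166, 9.208 and 9.241 in collagen 1 to 4. Control 2 was the highest array by a clear step, and the other 7 formed an overlapping series. The difference was -0.0368 ± 0.0367 (SE). Of the other 2 Rsad2 probe sets, that with a mean of 8.38 differed by -0.0411 and that with a mean of 8.14 by -0.00355.

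Ifit1, which binds viral RNA caps, stood at 8.382, 8.419, 8.392 and 8.400 in control 1 to 4 and at 8.372, 8.380, 8.397 and 8.405 in collagen 1 to 4. Control 2 was again the highest and collagen 1 the lowest. The difference was -0.00986 ± 0.0105. Ifit3, its partner, stood at 8.1065, 8.1132, 8.1082 and 8.1081 in control 1 to 4 and at 8.1048, 8.1054, 8.1080 and 8.1096 in collagen 1 to 4, a difference of -0.00206 ± 0.00177. The same 2 arrays gave its highest and lowest value.

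Usp18, which removes Isg15 from proteins and dampens the type I receptor, stood at 8.570, 8.590, 8.577 and 8.575 in control 1 to 4 and at 8.553, 8.562, 8.574 and 8.583 in collagen 1 to 4. Collagen 1 and collagen 2 lay below all control arrays, while collagen 4 lay above 3 of them. The difference was -0.0101 ± 0.00763. Oasl2, a relative of the oligoadenylate synthetases, stood at 8.3863, 8.3987, 8.3918 and 8.3907 in control 1 to 4 and at 8.3809, 8.3834, 8.3884 and 8.3944 in collagen 1 to 4. It followed the order of Usp18 in the collagen group, and differed by -0.00512 ± 0.00378. Eif2ak2 (PKR), a kinase that stops translation, lay 1.66 SD above its mean in control 2 and 1.23 SD below it in collagen 1, and differed by -2.73e-04 ± 1.96e-04. Its dimmer probe sets, at levels of 8.06 and 7.94, differed by -9.42e-05 ± 4.93e-04 and 1.07e-05 ± 4.42e-05, the latter being higher with collagen.

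The other type I effectors ran from Ifit2, at -0.00830 ± 0.00792, to Ifi27. Mx1, which traps viral nucleocapsids, differed by -0.00530 ± 0.00721, and Bst2 (tetherin), which holds budding virus at the cell surface, by -0.00122 ± 0.00190. Of the synthetases that activate RNase L, Oas1a differed by -0.00261 ± 0.00247, Oas2 by -5.30e-04 ± 5.24e-04 and Oas3 by -1.71e-06 ± 1.85e-06. Control 2 held the highest value of 16 of the 21 effectors, against 10.4% of all genes, and collagen 1 the lowest of 13, against 17.6% of all genes.

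Ifi27, Herc6, Oas3 and Ifi35 stood apart from the other effectors. Their correlations with the mean of the other type I effectors over the 8 arrays were 0.05, 0.40, 0.59 and 0.70, against 0.88 to 0.98 for the other 17. Herc6, a ligase that attaches Isg15 in the mouse, was measured by 4 probe sets. The brightest one, used here, lay 0.90 SD above its mean in control 1 and had a range of 5.22e-05. A dimmer one at a level of 8.04 had a range of 0.00130 and a difference of -4.25e-04, so the probe sets disagree on how much the gene varied. Those at 7.77 and 7.44 differed by -2.73e-05 and -9.06e-06. The one at 7.44 had an unadjusted p of 0.0387 by limma over all probe sets and was not called. The probe sets used for Ifi27 and Ifi35 carry a suffix (_s_at) that marks probes shared by several transcripts, so their signal may not come from 1 gene alone. A second Ifi27 probe set without that suffix, at a level of 11.70, also lay higher with collagen, by 9.26e-06 ± 2.43e-05. Its lowest array was collagen 2, as for the one used. Dimmer Ifi35 probe sets at 10.29 and 9.93 differed by -8.68e-06 and -2.42e-05. Close relatives such as the Oas1 and Ifit3 copies were not separated here.

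Parp9 and Dtx3l form a complex of an ADP-ribosyltransferase and a ubiquitin ligase in the interferon response, and Parp14 is a related transferase. Parp14 stood at 9.9808, 9.9816, 9.9814 and 9.9813 in control 1 to 4 and at 9.9802, 9.9804, 9.9812 and 9.9819 in collagen 1 to 4. Collagen 4 was its highest array, and also that of Parp9 and Dtx3l, which lay 1.62 and 1.21 SD above their means there. The differences were -3.42e-04 ± 4.15e-04 for Parp14, -5.63e-05 ± 1.30e-04 for Parp9 and -6.26e-05 ± 4.77e-05 for Dtx3l. Parp9 lay higher with collagen when collagen 1 (5.11e-06) or collagen 2 (1.08e-05) was left out.

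**Figure D3:**
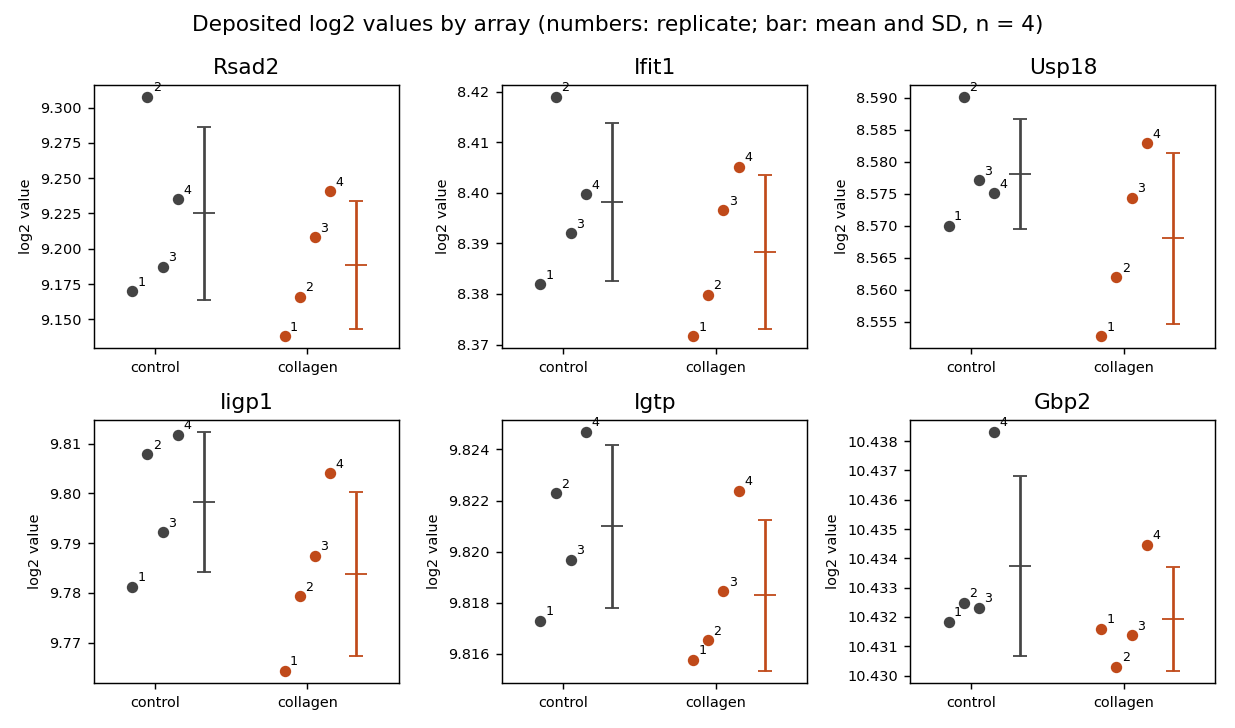
Deposited log2 values of 3 type I effectors (Rsad2, Ifit1 and Usp18) and 3 GTPases (Iigp1, Igtp and Gbp2) in each array, with the replicate number beside each point. Bars give the mean and SD of 4 arrays per diet, and each axis covers only the gene's own range. Control 2 is the highest array in the upper row and control 4 in the lower row, and the diets overlap in each gene.

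The GTPases induced by interferon gamma attack the vacuoles in which bacteria and parasites hide. They comprise guanylate-binding proteins (Gbp2, Gbp3 and Gbp7) and immunity-related GTPases (Igtp, Irgm1, Irgm2 and Iigp1), and 7 of 7 lay lower with collagen, with 0 called. Iigp1 stood at 9.781, 9.808, 9.792 and 9.812 in control 1 to 4 and at 9.764, 9.779, 9.787 and 9.804 in collagen 1 to 4. Collagen 1 and collagen 2 were its lowest arrays, and collagen 4 lay among the higher control arrays. The difference was -0.0145 ± 0.0105 (SE), or -0.94 SD.

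Igtp stood at 9.8173, 9.8223, 9.8197 and 9.8247 in control 1 to 4 and at 9.8158, 9.8165, 9.8184 and 9.8224 in collagen 1 to 4, a difference of -0.00270 ± 0.00209. Irgm1, which regulates the other immunity-related GTPases, stood at 9.4841, 9.4857, 9.4849 and 9.4859 in control 1 to 4 and at 9.4834, 9.4838, 9.4845 and 9.4853 in collagen 1 to 4. Control 4 was the highest array in both genes. Irgm1 differed by -9.26e-04 ± 5.59e-04, or -1.13 SD, the largest of the GTPases in SD units. Gbp3 stood at 9.0636, 9.0640, 9.0640 and 9.0640 in control 1 to 4 and at 9.0627, 9.0630, 9.0638 and 9.0642 in collagen 1 to 4, with a difference of -4.63e-04 ± 3.38e-04. Its control arrays lay close together and its collagen arrays on both sides of them.

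Gbp2 was set apart by a single array. It stood at 10.4318, 10.4325, 10.4323 and 10.4383 in control 1 to 4 and at 10.4316, 10.4303, 10.4314 and 10.4345 in collagen 1 to 4. Control 4 lay 2.18 SD above its mean, and the other 3 control arrays lay just below that mean. The difference was -0.00181 ± 0.00171, and that of a second Gbp2 probe set, with a mean of 10.12, was -0.00190. Gbp7 and Irgm2 differed by -6.58e-05 ± 5.49e-05 and -0.00153 ± 0.00123.

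Type I effectors and GTPases covaried over the arrays but peaked in different control arrays. Mean levels of the effectors ran from 7.83 to 11.75, with 17 of 21 reaching 8.193 (the median over probe sets), and those of the GTPases from 9.06 to 10.43, with 7 of 7 above it. Levels of different probe sets are not ranked here, since probes differ in how well they bind. The mean z value (SDs from each gene's own mean, averaged over a list) of the effectors was -0.55, 1.40, -0.02 and 0.31 in control 1 to 4 and -0.90, -1.07, -0.05 and 0.87 in collagen 1 to 4. That of the GTPases was -0.42, 0.58, 0.24 and 1.31 in control 1 to 4 and -1.38, -1.06, -0.14 and 0.87 in collagen 1 to 4. The lists were nearest to each other in collagen 2, 3 and 4. In control 2 the effectors lay 0.82 above the GTPases, and in control 4 the GTPases lay 1.00 above the effectors. Control 4 held the highest value of 5 of the 7 GTPases and of 1 of the 21 effectors.

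The median pairwise correlation was 0.87 within the effectors (210 pairs), 0.87 within the GTPases (21 pairs) and 0.76 between the lists (147 pairs). Each of 26 of the 28 genes correlated better with the mean of the rest of its own list than with that of the other, the exceptions being Ifi27 and Xaf1. Control 2 and control 4 were then left out because they were seen to separate the lists, so a smaller separation had to follow. Without both, the median between the lists was 0.87, against 0.85 within the effectors and 0.94 within the GTPases, and 18 of the 28 genes were nearer to their own list. Irf1, Irf9 and Stat2 correlated better with the GTPase mean (0.78, 0.83 and 0.92) than with the effector mean (0.69, 0.70 and 0.87), and Irf7 better with the effector mean (0.96 against 0.75). The 3 RNA sensors were nearer to the effectors. No difference between these correlations was tested.

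**Figure D4:**
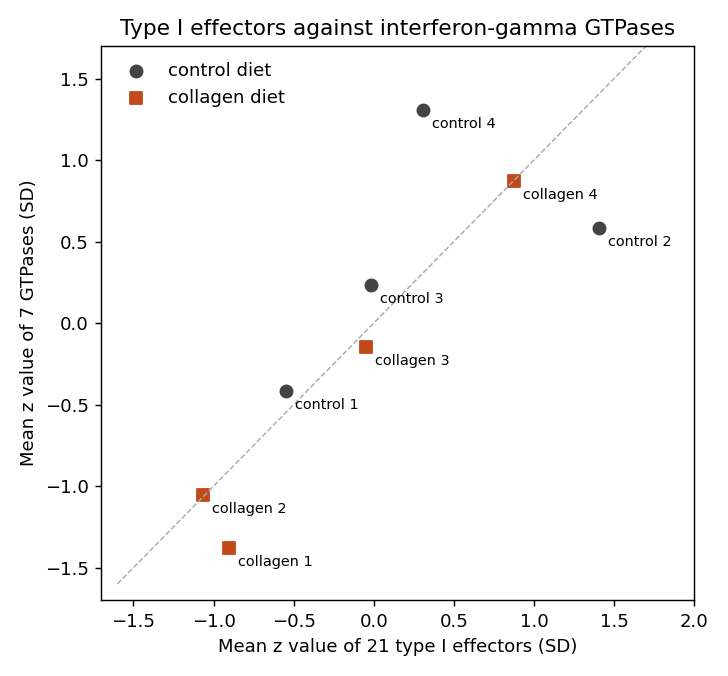
Mean z value of 21 type I effectors (horizontal) and 7 interferon-gamma GTPases (vertical) in each array, in SDs. The dashed line marks equal values. Control 4 lies above the line, control 2 below it, and the diets overlap along it.

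The rest of the pathway was taken from lists of genes named by function. Of 6 interferon ligands measured, 1 lay lower and 5 higher with collagen, 0 were called, and only Ifnz was above the median level of all probe sets. Ifng and Ifnb1, which encode interferon gamma and beta, lay at 7.12 and 7.48, and differed by 2.53e-06 ± 8.45e-06 and 2.29e-07 ± 3.64e-07. Ifnz, Ifna1 and Ifna2 differed by -1.75e-06 ± 1.25e-06, 5.38e-07 ± 3.63e-07 and 6.80e-07 ± 1.10e-06. Ifng was named as the ligand of the gamma arm, outside the rule used for the other genes. Signal over background is unknown here, so such levels do not show whether a ligand was expressed.

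Of 17 receptors and JAK-STAT signalling genes, 13 lay lower and 4 higher, with 0 called. Irf2, which restrains ISRE-driven transcription, was the 1 gene among them with an unadjusted p under 0.05, and differed by -1.60e-06 ± 6.10e-07 (unadjusted p = 0.0369, adjusted p = 0.999 by limma). The kinase Jak1 differed by -1.87e-05 ± 1.00e-05, Stat3 by -4.23e-06 ± 2.47e-06 and Pias1, a STAT inhibitor, by -4.27e-06 ± 2.96e-06. Of 10 adaptors and kinases of nucleic acid sensing, 4 lay lower and 6 higher, with -1.08e-06 ± 5.02e-07 for Ticam1, -6.49e-06 ± 3.73e-06 for Trim25, 5.00e-07 ± 4.94e-07 for Tbk1 and 1.02e-05 ± 1.27e-05 for Mavs.

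Of 39 other interferon-stimulated genes, 37 lay lower with collagen, where 47.1% of all genes did, and 0 were called. The exceptions were Nmi and Daxx. The membrane proteins Ifitm1, Ifitm2 and Ifitm3, which block viral entry, differed by -6.23e-05 ± 3.29e-05, -2.09e-04 ± 1.26e-04 and -9.08e-05 ± 5.29e-05, and Lgals9, a lectin, by -0.00132 ± 7.37e-04. Of the 39, 25 correlated above 0.7 with the mean of the type I effectors over the 8 arrays (64.1%), against 8.20% of all genes. None of the 6 ligands did, nor any of the 6 keratinocyte or 18 skeletal muscle markers. The same held for 9 T cell and NK cell markers and 5 plasmacytoid dendritic cell markers (without Bst2). Of the receptors and signalling genes 6 of 17 did, and of the adaptors and kinases of nucleic acid sensing 2 of 10. So did 3 of 5 endothelial markers, 5 of 11 macrophage and dendritic cell markers and 1 of 5 fibroblast markers. This cutoff hides weaker correlations. The median with the type I mean was 0.44 for muscle, 0.45 for T and NK cell, 0.67 for macrophage and 0.74 for endothelial markers. With the GTPase mean it was 0.60, 0.54, 0.57 and 0.56 in the same order, against 0.05 over all genes.

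Markers of other cell types moved with the members in part. Macrophage and dendritic cell markers lay lower with collagen in 9 of 11, endothelial markers in 5 of 5, fibroblast markers in 5 of 5, skeletal muscle markers in 17 of 18 and keratinocyte markers in 2 of 6, with 0 called in each list. Cd207 and Itgax, markers of Langerhans and dendritic cells, differed by -2.40e-05 ± 6.94e-06 and -1.51e-04 ± 4.72e-05 (unadjusted p = 0.0119 and 0.0170, adjusted p = 0.999 by limma). The mean z value of the macrophage list ran from -0.18 to 0.83 in control arrays and from -1.31 to 1.02 in collagen arrays, with its highest value in collagen 4 and its lowest in collagen 2. That of the muscle list ran from -0.64 to 1.21 and from -1.40 to 0.19, that of the endothelial list from -0.14 to 0.86 and from -1.68 to 0.36, and that of the fibroblast list from -0.59 to 0.91 and from -1.39 to 0.67. That of the keratinocyte list ran from -0.86 to 0.64 in control arrays and from -0.66 to 1.61 in collagen arrays, with its highest value in collagen 2, where the members were low, and its markers had a median correlation of -0.44 with the type I mean. T cell and NK cell markers lay lower in 5 of 9, with a mean z value of 1.77 in collagen 4 and of -0.64 to 0.23 in the other 7 arrays. Of the plasmacytoid dendritic cell list, which shares Bst2 with the members, 3 of 6 lay lower and Siglech lay at 7.82, below the median of all probe sets.

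The 3′ minus 5′ difference of the Gapdh control probe sets is a measure that RNA degradation can move. It ran from 0.28978 to 0.29041 in control arrays and from 0.29002 to 0.29058 in collagen arrays. That of actin ran from 0.3800491 to 0.3800498 and from 0.3800486 to 0.3800506. The actin measure was highest in collagen 1 and collagen 2, where the members' mean z value was lowest (-1.10 in both). It was lowest in collagen 4, where that mean was 0.91. Actin was not used as a covariate, and its part in the members' values was not tested. With the Gapdh difference as a covariate, 33 of 38 members lay lower and their median moderated t was -0.50, against -1.05 without it. With the muscle list's mean z value as a covariate, 32 of 38 lay lower and the median t was -0.44. The part of the macrophage, endothelial and fibroblast markers in the members' differences was not tested.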

How the data were processed

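Total RNA from powdered frozen dorsal skin was labelled with biotin for 1-colour mouse arrays, per the labels' protocols, 4 per diet. The authors deposited log2 values in 1 table. R 2.7.2 is named in the submitters' processing notes, and the summary method, normalization and genome build were not given in the sources used here. That the scale is log2 was taken from the range of the values (6.56 to 14.46). Depth or signal over background is unknown, and the number of arrays limits the precision.

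Values were used as deposited. Leaving out 64 control probe sets left 45037, of which the platform annotation gave 34945 a single gene symbol, 932 several and 9160 none. The brightest single-gene probe set stood for each of 18193 genes. Genes were compared with limma 3.58.1 in R 4.3.3 (two-sided, by eBayes after lmFit without covariates, Benjamini-Hochberg over all genes, threshold 0.05), and the test was tested on simulated data. Correlations and motif counts were computed with Python 3.11.15 and numpy 2.4.6, and figures drawn with matplotlib 3.10.9. Named members were all genes of lists of up to 4, and in larger lists the 4 with the largest moderated t and the 2 with the widest range. In the other lists they were the 4 with the smallest p. Gbp2, Gbp7, Irgm2 and the further effectors were named as members of the list. The members and lists were chosen with earlier results of these data known. Alternatives were median centring, quantile normalization, leaving out each array, a filter on dim probe sets, the replicate number as a block, other variance models, other probe set choices, and Gapdh or muscle covariates.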

Additional observations from a re-analysis of the deposited data

Results flagged for a closer look

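In groups of 4 arrays, the gap between the most extreme array and its neighbour, as a share of the group's range, was set against Dixon's 95% critical value. Over the 38 members and both diets this made 76 groups, where 3.8 would pass by chance, and 2 did. Gbp2 passed in the control diet, where control 4 lay far above the other 3 (share 0.899). Ifih1 passed in the control diet, where control 2 lay far above the other 3 (share 0.931).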

How the results depend on the processing

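Signs and calls were kept in 347 of 357 alternative values of the 20 members described in full, and their adjusted p by limma ran from 0.526 to 1. Some alternatives leave the difference itself unchanged, so the sign could not turn there. They were the replicate block, the other variance models, the dim filter and the fit over all probe sets. The mean of probe sets also leaves it unchanged for genes with a single probe set. The sign turned in 10 values. After median centring the difference was 1.66e-05 for Irf9 and 3.61e-05 for Stat2, and after quantile normalization 4.70e-05 for Stat2 and 2.62e-05 for Ddx58. With the Gapdh covariate it was 2.20e-05 for Irf9 and 2.67e-05 for Parp9, and with the muscle covariate 2.64e-05 and 1.37e-05. Parp9 turned to 5.11e-06 and 1.08e-05 without collagen 1 and collagen 2, and ran from -1.63e-04 to 1.08e-05 with 1 array left out. The cause was not tested. The replicate numbers were checked as pairs: same-numbered arrays had correlations of 0.362, 0.0486, 0.215 and 0.0111. Differently numbered arrays of the 2 diets had correlations from -0.283 to 0.175. Control 2 and control 4 correlated better with another number than with their own. Whether a shared number marks a pair is unknown and was not tested. With the replicate number as a block, 0 genes and 0 members were called, 1110 genes had an unadjusted p under 0.05 against 635 without it, and the median t of the GTPases was -2.47 against -1.29. With the muscle covariate 1 of 18193 genes was called, not a member. Members with an unadjusted p under 0.05 numbered 3 after quantile normalization (2.84% of all genes) and 1 after median centring (0.396% of all genes), and 0 to 5 with 1 array left out. Members without overlap numbered 0 to 5 with 1 array left out, and the median t of the GTPases then ran from -2.38 to -0.81. Overlap could not be recomputed with a block or covariate. The median correlation within the effectors was 0.82 after median centring and 0.75 after quantile normalization, and 0.84 to 0.91 with 1 array left out. Within the GTPases it was 0.83 on diet-centred values, 0.69 after quantile normalization, 0.94 without control 2 and control 4, and 0.83 to 0.90 with 1 array left out. Between the lists it was 0.81 by Spearman, 0.71 after median centring, 0.56 after quantile normalization, 0.87 without control 2 and control 4, and 0.72 to 0.84 with 1 array left out.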

Other observations

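Of the 39 other interferon-stimulated genes, 21 correlated better with the GTPase mean than with the type I mean over the 8 arrays, and 18 the reverse. The subunits of the immunoproteasome, which cuts proteins into peptides for display to T cells, were among the 21. The genes described here were chosen after their values were seen, and no difference between the correlations was tested. Psmb8, Psmb9 and Psmb10 correlated with the GTPase mean at 0.96, 0.96 and 0.93, and with the type I mean at 0.85, 0.71 and 0.81. Psmb9 lay 1.24 SD above its own mean in control 4 and 0.15 SD above it in control 2, where 5 of the 7 GTPases had their highest value in control 4. Parp12 and Adar, an enzyme that edits double-stranded RNA, went the other way, with correlations of 0.99 and 0.94 with the type I mean and of 0.86 and 0.72 with the GTPase mean. Adar lay 1.97 SD above its mean in control 2 and 0.09 SD above it in control 4. Psmb8 differed between the diets by -5.39e-04 ± 3.66e-04, Psmb9 by -3.39e-04 ± 2.52e-04 and Adar by -4.79e-06 ± 2.95e-06 (SE, n = 4 per diet), and none was called.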
